A study of Mus musculus with 8 samples.

Results

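The 10 genes described here handle iron, bind metals or defend the cell against oxidation, and their RNA was measured in the hippocampus of 8 mice. They were taken by name: Fth1, Slc11a1, Cp and Tfrc for iron storage and transport, Hmox1, Slc7a11, Nqo1 and Cat for antioxidant defence and haem breakdown, and the metallothionein genes Mt1 and Mt2. All 10 were on the Affymetrix mouse array, among 12393 genes with a single symbol. They were read by 24 of its 22690 probe sets, where a probe set is a group of probes for 1 transcript region. Of the 24, 3 are array controls made for the transferrin receptor and were kept out of the tests, which left 21.

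Both groups come from 1 colony (B6.C-H2-Kbm1/ByBir) kept by mating carrier siblings. The 4 normal mice are labelled Gusb mps/+, so the controls also carry 1 copy of the mutant allele, and no mouse without it is in the comparison. The 4 mutant mice are labelled Gusb mps/mps and lack a working copy of the gene for the lysosomal enzyme beta-glucuronidase, which makes them a model of mucopolysaccharidosis VII. Normals 1 to 4 were aged 38.3, 25.6, 19.6 and 14.6 weeks, and mutants 1 to 4 were aged 38.3, 25.6, 25.6 and 19.6 weeks. Animals 1 and 4 of each group were female and animals 2 and 3 male. Each array held RNA of the right hippocampus of 1 animal, and the values are log2 expression values.

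Iron is needed by neurons and by myelinating cells, but free iron drives the formation of reactive oxygen species, so cells take it up, store it and export it under tight control. Transferrin receptor brings iron into the cell, ferritin stores it, ceruloplasmin oxidises it as it leaves, and a phagocyte transporter moves it out of the vesicles in which phagocytes digest what they engulf. Haem oxygenase, the cystine transporter, the quinone reductase and catalase belong to the oxidative stress response, much of it under the transcription factor NRF2, and metallothioneins bind zinc and copper.

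The arrays differed in tissue content and quality, both within and between the groups. The 3 measured CA1 pyramidal neuron markers had means of 7.82 to 9.43 in normals and 7.43 to 9.36 in mutants. Striatal markers were high in normals 1, 3 and 4 (9.92 to 11.0) and lay between 6.84 and 8.17 in normal 2 and all 4 mutants, so that each of the 5 striatal genes had a lower mean in mutants (median -2.37, 5 of 5 with an unadjusted p under 0.05 in limma, 0 past the adjusted threshold). Thalamus and habenula markers spanned 6.88 to 9.22 among the normals and 6.41 to 9.67 among the mutants, and choroid plexus markers were high in mutants 1 and 3 (8.27 and 7.38) against 4.39 to 5.36 elsewhere. In normal 1 the 3 prime probe sets of the actin and Gapdh controls exceeded the 5 prime ones by 3.58 on average, and on the other arrays by 0.22 to 0.75, a larger gap being a sign of degraded or shortened RNA. Normal 4, the youngest animal, lay more than 1 log2 unit below every other array for 269 of the 10347 genes whose mean exceeded the bacterial controls, where the count was 92 for normal 1 and 0 to 12 for the other 6 arrays. The 27 probe sets for bacterial transcripts, used here as the level of an absent RNA, had a highest value of 3.72. On the Gusb probe set that separated the groups, all mutants lay lower (4.36 to 4.71) than all normals (5.40 to 6.56), while its other probe set overlapped (5.55 to 6.59 against 5.12 to 6.40).

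The phagocyte iron transporter gene Slc11a1, the haem oxygenase gene Hmox1 and the cystine transporter gene Slc7a11 were higher in each of the 4 mutants than in each of the 4 normals. Of the 10 genes, 9 had a higher mean in mutants and 1, Fth1, a lower mean, where 52.5% of all genes had a higher mean. All mutants lay above all normals for 3 of the 10, against 2.27% of all genes, and below all normals for 0 of the 10, against 1.61%. In limma with Benjamini-Hochberg adjustment over all genes, 0 of the 10 passed adjusted p 0.05, which 0.105% of all genes did. At an unadjusted p under 0.05 the same 3 were higher in mutants, against 4.05% of all genes.

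**Figure D1:**
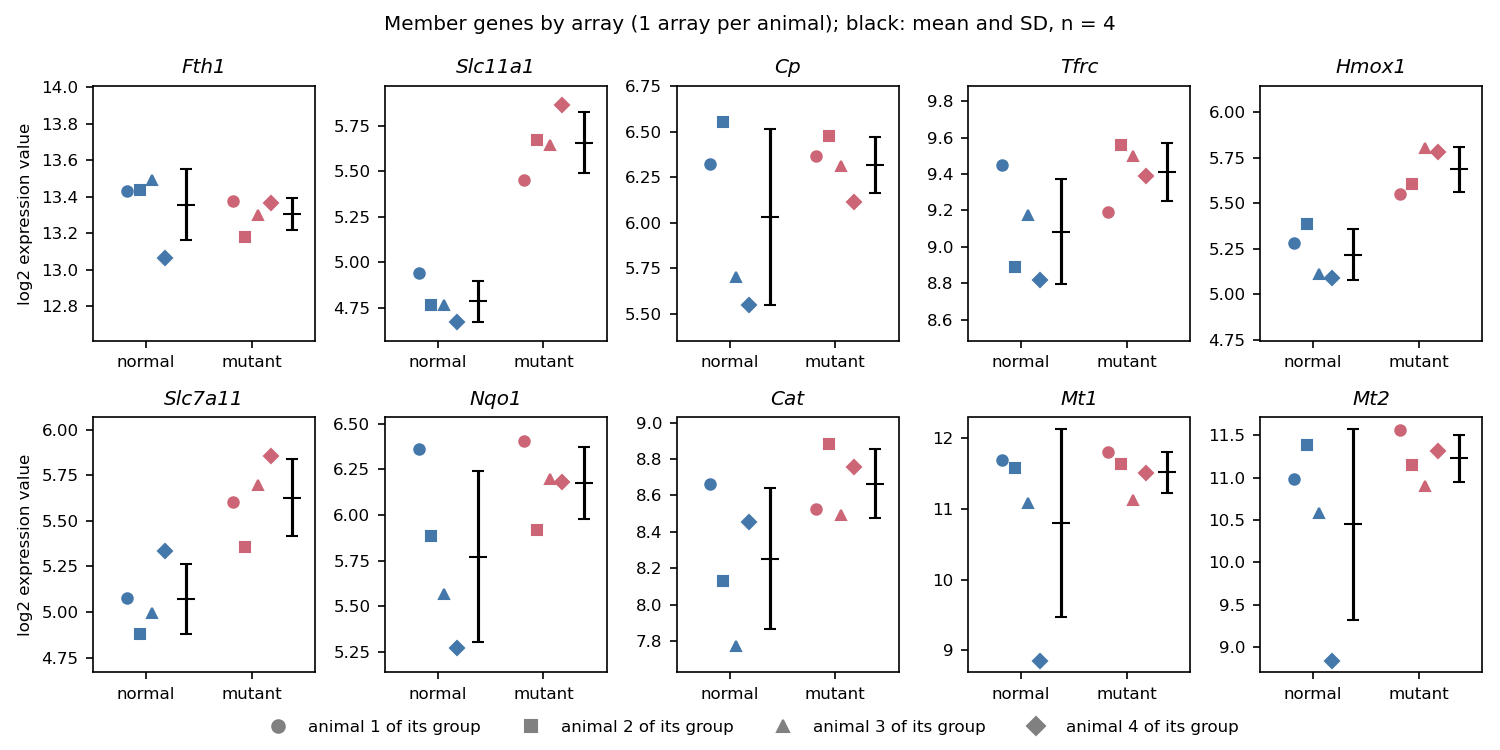
Log2 expression value (vertical axis) of each of the 10 genes on each array, normal mice in blue and mutant mice in red, with the group mean and SD (n = 4) in black; the vertical scales differ between panels. Slc11a1, Hmox1 and Slc7a11 separate the groups, while normal 4 lies far below the other 7 arrays for Mt1 and Mt2.

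Among the iron genes, Slc11a1 differed most. It encodes NRAMP1, a divalent metal transporter in the phagosomes and lysosomes of macrophages. Only its RNA was measured, and whether these mice make a working protein was not tested. Its value was 4.94, 4.76, 4.77 and 4.67 in normals 1 to 4 and 5.45, 5.67, 5.64 and 5.86 in mutants 1 to 4. The lowest mutant thus lay above the highest normal, and all 8 values exceeded the bacterial controls. The mean went from 4.79 ± 0.11 to 5.66 ± 0.17 (SD, n = 4 each), a log2 difference of 0.87 ± 0.12 (SE) or 1.83-fold. This was the 14th smallest p of all genes and missed the threshold (limma adjusted p = 0.0555 over all genes, 0.0635 over all probe sets). The two-sided exact permutation test gave p = 0.0286, the smallest that 4 against 4 animals allows. The difference stayed between 0.76 and 0.98 under the 23 alternatives that gave a value. Slc11a1 passed in 2 of them, with all probe sets of a gene averaged (limma adjusted p = 0.0382) and with array weights (0.0150). It has 1 probe set, so averaging left its own difference at 0.87. In no other alternative did it pass, and the limma adjusted p reached 0.455 without mutants 2 and 4. With sex as a covariate the adjusted p was 0.131, and with the replicate block (4 pairs of the same sex and series of animal numbers) 0.337.

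Microglial and macrophage markers moved with Slc11a1. Of the 15 markers, 11 were higher in all mutants than in all normals, against 2.27% of all genes. The other 4 had a lower mean (P2ry12, Csf1r, Itgam and Cx3cr1), and none of the 15 was at the level of the bacterial controls. Their mean was 7.26 to 7.95 in normals and 8.50 to 8.71 in mutants. The mean of the 10 astrocyte markers was 8.92 to 9.28 in normals and 9.48 to 9.61 in mutants, with 9 of 10 higher in mean but only Gfap and Aqp4 without overlap (median difference 0.24). The mean of the 9 oligodendrocyte markers was lower in mutants (8.61 to 9.43 against 9.71 to 10.1), with 9 of 9 lower. Of the 9, 6 were lower in all mutants than in all normals, against 1.61% of all genes. The striatal markers were lower as given above. The part of these cell types and of the striatal tissue in the value of Slc11a1 was not tested, and in whole tissue more cells of a type and more RNA per cell cannot be told apart. Over the 8 arrays Slc11a1 had a Pearson r of 0.87 with the microglial mean, 0.95 with the astrocyte mean, -0.77 with the oligodendrocyte mean and -0.76 with the striatal mean, as a description. Normal 4 was lowest of the normals for both Slc11a1 and the microglial mean, while among the mutants the lowest Slc11a1 value and the highest microglial mean were both in mutant 1. Over the 8 arrays the genes whose pattern was most like that of Slc11a1 were Cst7 (Pearson r = 0.97, Spearman rho = 0.95), Cd84 (0.97, 0.93) and Mpeg1 (0.97, 0.93), the last of which is also 1 of the 15 markers; each of the 3 passed in limma over all genes. These values share arrays and group differences and are given as a description.

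**Figure D2:**
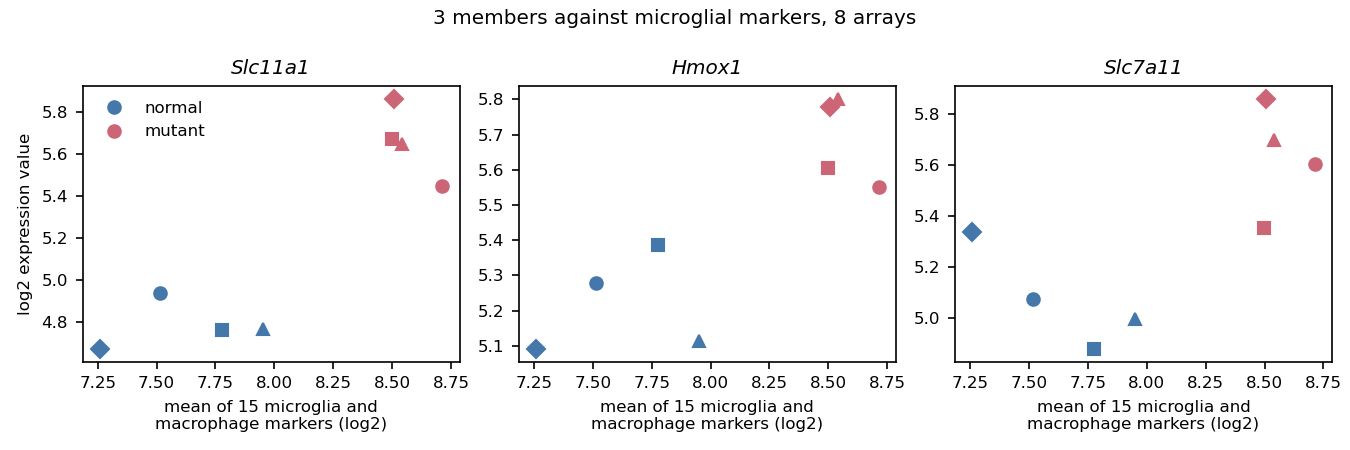
Log2 expression value of Slc11a1, Hmox1 and Slc7a11 (vertical axes) against the mean log2 value of 15 microglia and macrophage markers (horizontal axes), 1 point per array, normal mice in blue and mutant mice in red, with the same symbol for each animal number as in the plot by array. The groups lie apart on both axes, with marker means up to 7.95 in normals and from 8.50 in mutants.

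Ferritin heavy chain, the iron-storing and iron-oxidising subunit encoded by Fth1, showed nearly equal group means. Its value was 13.43, 13.44, 13.49 and 13.07 in normals and 13.38, 13.18, 13.30 and 13.36 in mutants. The groups overlapped, with normal 4 lowest of all arrays and normals 1, 2 and 3 above every mutant. The log2 difference was -0.05 ± 0.12 (SE), with a 95% interval from -0.34 to 0.23 (limma adjusted p = 0.968). Its other probe set gave -0.05 ± 0.14. The sign turned (0.055) without normals 1 and 3, and the difference was -0.15 without normal 4. The brighter probe set lies close to the highest values of the arrays (13.7 to 13.9).

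Ceruloplasmin, the copper-containing ferroxidase encoded by Cp, was higher in mutants by a small amount that the spread of the normals covered. On the brightest of its 7 probe sets it was at 6.32, 6.55, 5.70 and 5.55 in normals and at 6.37, 6.47, 6.31 and 6.11 in mutants. The mutants lay within the range of the normals, of which 3 and 4 were low. The log2 difference was 0.29 ± 0.23 (SE, limma adjusted p = 0.907), and it was 0.12 without normal 4, 0.18 without normal 3 and 0.46 without normal 2. Of the 7 probe sets, 6 gave higher means in mutants (0.19 to 0.45), and the one with a lower mean (-0.36) exceeded the bacterial controls on only 1 array. The 0.45 belongs to a dim probe set on which all mutants (4.45 to 4.80) lay above all normals (3.94 to 4.39), with 0.45 ± 0.14 (SE, limma adjusted p = 0.680 over all probe sets). Over the 8 arrays Cp had a Pearson r of 0.73 with the endothelial mean, -0.62 with the striatal mean and 0.60 with the meningeal mean. With the means of the neuron and choroid plexus markers it was -0.61 and 0.51, as a description. The part of these cells and tissues in the Cp value was not tested. Choroid plexus markers were high in mutants 1 and 3. Without those 2 mutants the difference on the brightest probe set was 0.26.

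Transferrin receptor, encoded by Tfrc, overlapped between the groups. It was at 9.45, 8.89, 9.17 and 8.82 in normals and at 9.19, 9.56, 9.50 and 9.39 in mutants on its brightest probe set. Normal 1 exceeded mutants 1 and 4, while normals 2, 3 and 4 lay below every mutant. The log2 difference was 0.33 ± 0.16 (SE, 95% interval -0.04 to 0.70, limma adjusted p = 0.805). The other tested probe sets gave 0.06 and -0.21, so the mean of all 3 was 0.06. On the second, normal 1 was lowest (4.12) and normal 3 highest (5.73), while the mutants lay between 4.97 and 5.24. The third exceeded the bacterial controls on 2 arrays.

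**Figure D3:**
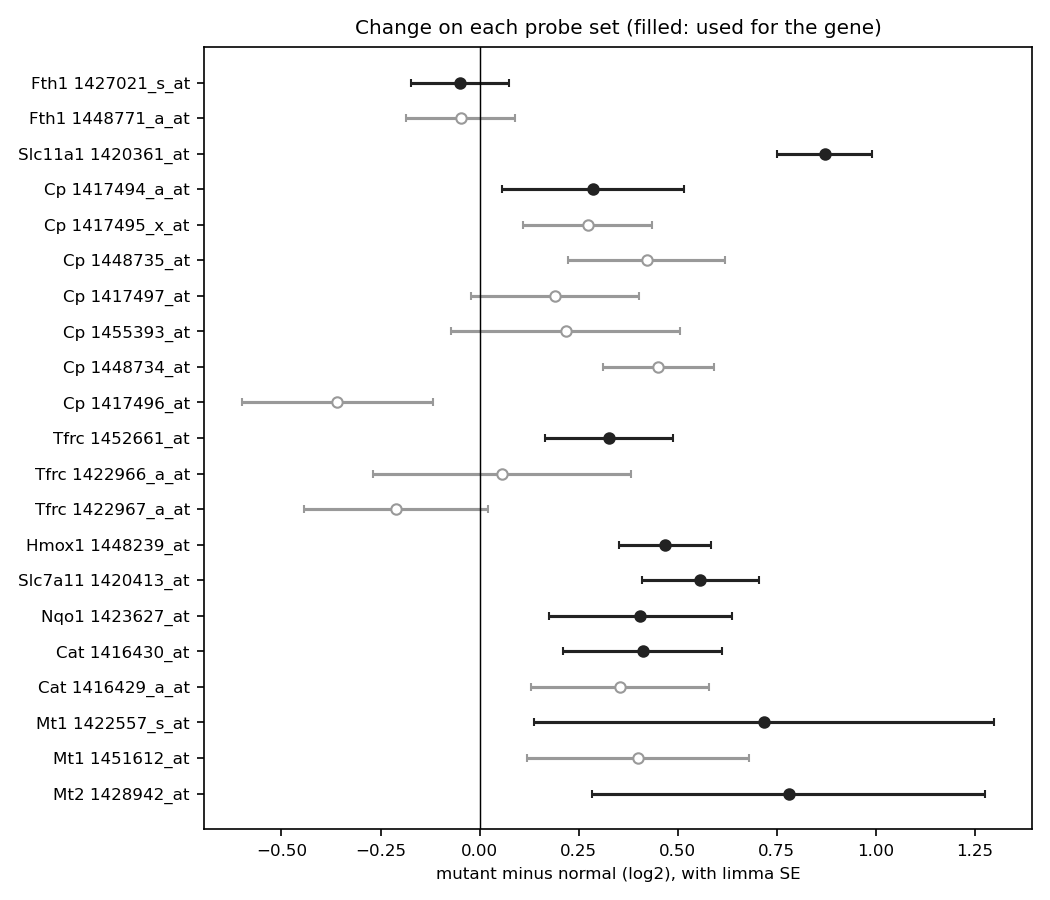
Log2 difference, mutant minus normal, with the limma SE (horizontal axis) for each of the 21 tested probe sets, 4 against 4 arrays; filled points mark the probe set used for the gene. The values run from -0.36 for the dimmest Cp probe set to 0.87 for Slc11a1.

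Among the antioxidant and haem genes, Hmox1 was higher in all mutants. It encodes haem oxygenase 1, the inducible enzyme that breaks haem down to biliverdin, carbon monoxide and iron. Its value was 5.28, 5.39, 5.11 and 5.09 in normals and 5.55, 5.61, 5.80 and 5.78 in mutants. The groups did not overlap, with a gap of 0.16 between normal 2 and mutant 1 that is close to the SDs of 0.14 and 0.12. The log2 difference was 0.47 ± 0.12 (SE) or 1.38-fold, with a 95% interval from 0.20 to 0.73 (limma adjusted p = 0.371, two-sided exact permutation p = 0.0286). It ran from 0.43 to 0.52 over 23 alternatives and passed in 0 of them. Several marker means moved with it over the 8 arrays, by Pearson r as a description: astrocytes 0.89, striatum -0.88, microglia 0.84, endothelial cells 0.83, meninges 0.82 and oligodendrocytes -0.78. The endothelial mean was 6.13 to 6.82 in normals and 6.64 to 6.995 in mutants, and the meningeal mean 5.12 to 5.81 and 5.85 to 6.78. The part of these cells and tissues in Hmox1 was not tested.

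Slc7a11 encodes xCT, the subunit of the cystine and glutamate exchanger that supplies cystine for glutathione. Its value was 5.07, 4.88, 4.996 and 5.34 in normals and 5.60, 5.35, 5.70 and 5.86 in mutants. Normal 4 (5.34) and mutant 2 (5.35) nearly touched, so the separation was by 0.02. The log2 difference was 0.56 ± 0.15 (SE) or 1.47-fold, with a 95% interval from 0.22 to 0.89 (limma adjusted p = 0.411, two-sided exact permutation p = 0.0286). It ran from 0.48 to 0.67 over 23 alternatives and passed in 0 of them. The marker means that moved most with Slc7a11 over the 8 arrays were those of astrocytes (Pearson r = 0.78), oligodendrocytes (-0.77) and microglia (0.67). Next came meninges (0.60) and striatum (-0.58), and the part of these cells and tissues was not tested. Its partner chain, encoded by Slc3a2, was at 9.54 ± 0.09 in normals and 9.85 ± 0.15 in mutants (SD, n = 4 each, difference 0.31, limma adjusted p = 0.682).

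Nqo1, the gene of an NAD(P)H quinone dehydrogenase and a standard NRF2 target, overlapped between the groups. It was at 6.36, 5.88, 5.57 and 5.27 in normals and at 6.40, 5.92, 6.20 and 6.18 in mutants. Normal 1, the array with the poorer RNA and, with mutant 1, the oldest animal, was above mutants 2, 3 and 4. Mutants minus normals gave 0.41 ± 0.23 in log2 (SE, limma adjusted p = 0.843). It was 0.60 without normal 1 and 0.24 without normal 4. Over the 8 arrays Nqo1 had a Pearson r of -0.88 with the mean of the neuron markers and 0.77 with the meningeal mean. With the astrocyte and choroid plexus means it was 0.71 each, and the part of these cells was not tested.

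Catalase, the peroxisomal enzyme that splits hydrogen peroxide and is encoded by Cat, also overlapped. It was at 8.66, 8.13, 7.77 and 8.45 in normals and at 8.52, 8.88, 8.49 and 8.76 in mutants. Normal 1 exceeded mutants 1 and 3, and normal 3 was lowest. Between the means lay 0.41 ± 0.20 log2 units (SE, 95% interval -0.05 to 0.87, limma adjusted p = 0.795), and the second probe set gave 0.35 ± 0.23. Without normal 3 the difference was 0.25. The mean differences were 0.08 in females and 0.74 in males (2 against 2 each), with a difference between the sexes of -0.65 ± 0.30 (SE, limma adjusted p = 0.465 for the interaction).

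The metallothionein genes Mt1 and Mt2, which encode small cysteine-rich proteins that bind zinc and copper, varied together and mainly in 1 animal. Mt1 was at 11.69, 11.59, 11.09 and 8.85 in normals and at 11.80, 11.64, 11.13 and 11.51 in mutants. Mt2 was at 10.98, 11.39, 10.58 and 8.84 in normals and at 11.56, 11.14, 10.90 and 11.31 in mutants. Normal 4 lay over 2 log2 units below the next array for Mt1 and 1.74 below for Mt2, and the other 7 arrays overlapped. The log2 differences were 0.72 ± 0.57 for Mt1 and 0.78 ± 0.49 for Mt2 (SE, limma adjusted p = 0.907 and 0.866). Without normal 4 they were 0.07 and 0.24. The second Mt1 probe set, far dimmer, gave 0.40 ± 0.28, again with normal 4 lowest (4.88).

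Normal 4 was also low for other genes. The mean of 43 ribosomal protein genes, a list chosen after the values were seen, was 9.58 in normal 4 and 10.4 to 10.8 on the other 7 arrays. Over the 8 arrays the genes most like Mt1 were Ly86, Rpl35 and Cisd1 (Pearson r = 0.998 each), and those most like Mt2 were Ssr4, Borcs7 and Hint1 (0.99 each). Mt1 and Mt2 had a Pearson r of 0.98 with each other over the 8 arrays and of 0.80 over the 7 without normal 4. Normal 4 was the youngest mouse, at 14.6 weeks, and with 1 animal of that age its age and its array cannot be told apart. The mean differences between mutants and normals were 1.39 and 1.52 in females, the sex of normal 4, and 0.045 and 0.037 in males, and the interaction did not pass for either (limma adjusted p = 0.685 and 0.575).

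**Figure D4:**
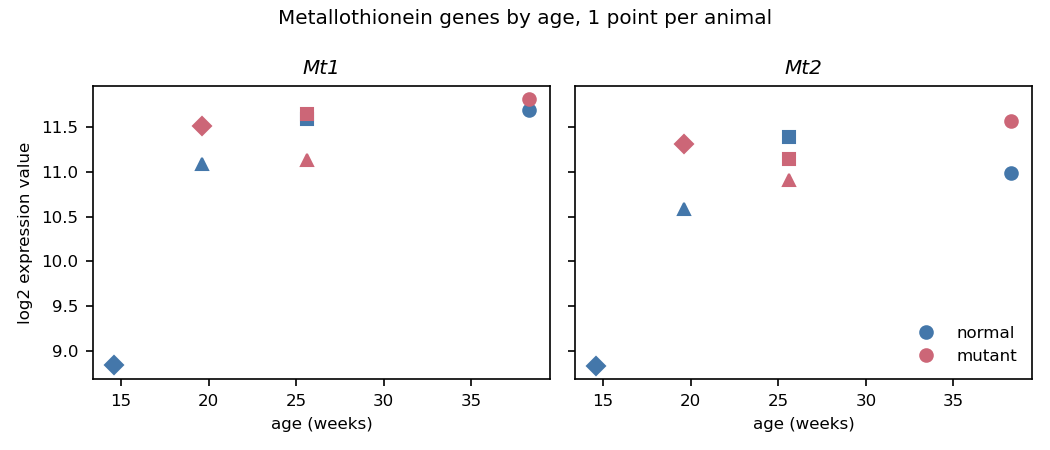
Log2 expression value of Mt1 and Mt2 (vertical axis) against age in weeks (horizontal axis), 1 point per animal, normal mice in blue and mutant mice in red. The normal mouse of 14.6 weeks lies at 8.85 and 8.84, and the 7 animals of 19.6 to 38.3 weeks lie between 10.58 and 11.80.

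For the metallothionein pair, the 250 bases before the RefSeq start of each gene are shown (GRCm38.p6, plus strand), Mt2 at chr8:94172368-94172617 and Mt1 at chr8:94178839-94179088. The genes named above followed Mt1 or Mt2 more closely over the 8 arrays than the pair followed each other. Any link between these letters and the RNA values was not tested. Capitals mark the letters TGCACNC or TGCGCNC on either strand, the core of the metal response element through which the zinc sensor MTF1 acts.
Mt2: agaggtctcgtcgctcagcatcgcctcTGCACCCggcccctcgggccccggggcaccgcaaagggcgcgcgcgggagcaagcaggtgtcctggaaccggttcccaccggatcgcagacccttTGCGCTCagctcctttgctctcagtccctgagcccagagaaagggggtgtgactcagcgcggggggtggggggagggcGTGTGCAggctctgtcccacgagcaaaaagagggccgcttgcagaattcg
Mt1: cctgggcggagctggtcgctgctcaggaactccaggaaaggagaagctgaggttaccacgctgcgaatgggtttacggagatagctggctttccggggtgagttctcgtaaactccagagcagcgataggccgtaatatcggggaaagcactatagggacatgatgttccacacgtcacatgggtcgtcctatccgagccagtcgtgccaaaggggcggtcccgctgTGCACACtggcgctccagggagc
The Mt2 window held 3 matches and the Mt1 window 1. These counts depend on the annotated start and cover only the 250 bases before it. Bases beyond the windows were not searched, so the counts are not totals for either promoter. Of 32851 such windows of all genes, 21.4% held at least 1 and 1.26% at least 3. Both windows of Cp and of Fth1 and that of Slc11a1 held 0, and those of Tfrc 2 and 0. The looser letters TGCNCNC, which take any base at the fourth place, matched 5 times in Mt2 and 1 time in Mt1. In the windows of Tfrc they matched 3 times and 1 time, and in those of Cp 2 times and 0 times. Slc11a1 and Nqo1 held 2 each, and Fth1, Slc7a11 and Cat held none. Of all windows, 44.4% held at least 1 and 0.344% at least 5. For 9 of the 10 genes a window was at hand. The antioxidant response core TGACNNNGC, searched on both strands and present in 10.2% of all windows, was found once, in Mt2, where it did not overlap the metal response matches. The windows of Slc7a11, Nqo1 and Cat held none. A match is a run of letters, and binding was not measured.

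Iron storage and transport genes differed less evenly between the groups than antioxidant genes. The 4 iron genes had log2 differences from -0.05 to 0.87 (median 0.31), 3 of 4 with a higher mean and 1 of 4 without overlap, and the median was 0.18 without normal 4. The 4 antioxidant genes had differences from 0.41 to 0.56 (median 0.44), 4 of 4 with a higher mean and 2 of 4 without overlap. Over all 12393 genes the median was 0.01, 52.5% had a higher mean, and all mutants lay above all normals for 2.27%. No test was made between the classes, since the genes were chosen by name with earlier results known. In the wider lists below, medians were 0.18 for iron uptake, transport and export, 0.07 for iron storage and release and 0.08 for iron sensing. They were 0.04 for NRF2 pathway genes and 0.14 for peroxide, superoxide and thiol enzymes.

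By array, the mean difference from the normal mean over the 4 antioxidant genes was 0.27, -0.01, -0.22 and -0.04 in normals 1 to 4 and 0.44, 0.36, 0.47 and 0.57 in mutants 1 to 4. Over the 4 iron genes it was 0.22, 0.10, -0.03 and -0.29 in normals and 0.28, 0.41, 0.37 and 0.37 in mutants. In both classes every mutant lay above every normal, and normal 1 came nearest. Without Slc11a1 the iron genes overlapped, at 0.24, 0.14, -0.03 and -0.35 in normals and 0.16, 0.25, 0.21 and 0.13 in mutants. Without Hmox1 and Slc7a11 the antioxidant genes overlapped too, with 0.50, -0.01, -0.34 and -0.15 in normals and 0.45, 0.39, 0.33 and 0.46 in mutants. The metallothionein pair overlapped as well, with 0.71, 0.86, 0.21 and -1.78 in normals and 1.06, 0.77, 0.39 and 0.79 in mutants.

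**Figure D5:**
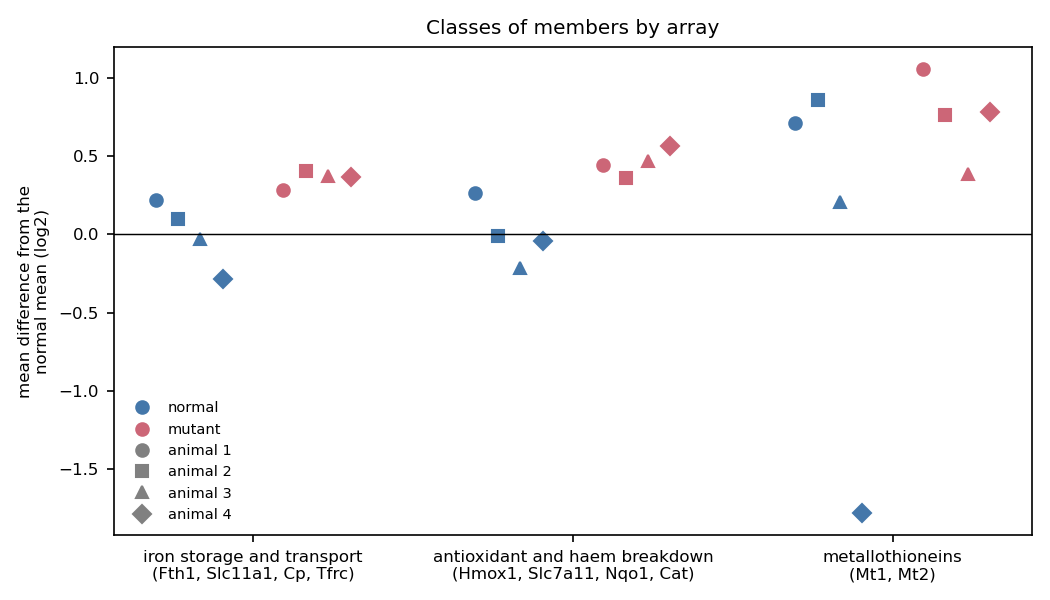
Mean log2 difference from the mean of the 4 normals (vertical axis) over the genes of each class (horizontal axis), 1 point per array, normal mice in blue and mutant mice in red. The iron and antioxidant classes separate the groups, and normal 4 lies at -1.78 for the metallothioneins.

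In 8 lists of genes of these pathways, which include the 10 genes, none passed in limma over all genes in either direction. Of 18 measured genes of iron uptake, transport and export, 16 had higher means in mutants (median 0.18). Besides Slc11a1 the smallest p belonged to Cd163, the haptoglobin and haemoglobin scavenger receptor of macrophages, at 4.06 ± 0.49 in normals and 2.98 ± 0.24 in mutants, the latter within the bacterial controls (adjusted p = 0.313). Lrp1, an endocytic receptor that also takes up haem bound to hemopexin, was at 8.76 ± 0.28 and 9.30 ± 0.18 (difference 0.55, adjusted p = 0.529), and Slc39a14, a transporter of zinc and iron, differed by 0.40 (adjusted p = 0.726; SD, n = 4 each throughout).

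Of 5 genes of iron storage and release, 4 had higher means (median 0.07), with the iron chaperone genes Pcbp2 at 0.29 and Pcbp1 at 0.08 and the ferritin cargo receptor gene Ncoa4 at 0.07. Of 7 iron sensing genes, 5 had higher means (median 0.08), with Hfe at 0.52, Iscu, which scaffolds iron-sulfur clusters, at 0.42 and Bmp6 at 0.45. Of 14 genes of haem synthesis and breakdown, 9 had higher means (median 0.07). Cpox, which encodes an enzyme late in haem synthesis, was at -0.62 (limma adjusted p = 0.635), and Alas1, which encodes the first enzyme of the path, was at 0.20, as Ppox was at 0.22.

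Of 25 metallothionein, zinc and copper genes, 17 had higher means in mutants (median 0.16). The zinc transporter gene Slc39a4 was at 3.82 ± 0.17 in normals, near the bacterial controls, and at 4.74 ± 0.57 in mutants (SD, n = 4 each, limma adjusted p = 0.472), Slc30a1, which exports zinc, was at -0.34 and Slc39a6 at 0.46. Of 24 NRF2 pathway genes, 15 had higher and 9 had lower means (median 0.04). Besides members, those of smallest p were Me1 at 0.44, Gsta4 at 0.50 and Pgd at 0.28, enzymes of NADPH supply and conjugation. Hmox1, Slc7a11 and Me1 were the 3 of the 24 with an unadjusted p under 0.05 in limma. All 3 were higher in mutants, as 4.05% of all genes were at that level. Of 27 peroxide, superoxide and thiol enzyme genes, 21 had higher means (median 0.14), with the extracellular superoxide dismutase gene Sod3 at 0.38 and the lipid peroxidase gene Gpx4 at 0.41.

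In the list for the phagocyte NADPH oxidase, the enzyme that makes superoxide in phagosomes, 6 of 6 genes had higher means in mutants (median 0.24). The list includes Nox4, which encodes a related oxidase and not a subunit of this enzyme. Nox4 and Cybb, which encodes the catalytic subunit, are the 2 of the 6 that never exceeded the bacterial controls, and Rac2 differed by 0.06. Cyba, which encodes the membrane subunit p22phox of the phagocyte enzyme, was at 6.34 ± 0.58 in normals and 7.73 ± 0.34 in mutants (SD, n = 4 each), a log2 difference of 1.39 ± 0.29 (SE, limma adjusted p = 0.250). Ncf1 and Ncf4, which encode subunits that join it from the cytosol, differed by 0.42 and 0.34. The microglial marker means given above moved with this list too, and their part was not tested.

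Over all 21 tested probe sets of the 10 genes, 17 gave higher means in mutants and 4 separated the groups with all mutants higher, against 1.81% of all probe sets. None passed in limma, where 0.0884% of all probe sets did, and 4 had an unadjusted p under 0.05 with a higher mean in mutants, against 3.14% of all probe sets. For the difference between the sexes, 0 of the 10 genes and 0 of 12393 genes (0%) passed in limma, where 1419 genes had an unadjusted p under 0.05. Within each sex the differences of Slc11a1 (0.85 in females, 0.89 in males), Hmox1 (0.48 and 0.45) and Slc7a11 (0.53 and 0.59) were close, with 2 animals in each cell.

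By the same likeness over 8 arrays, Hmox1 was followed by the amino acid transporter gene Slc7a5 (Pearson r = 0.96), Npdc1 (0.96) and Gdpd3 (0.95), and Slc7a11 by the cathepsin B gene Ctsb (0.95), Fam20b (0.94) and Vcp (0.94). Cat was followed by the astrocyte glutamate transporter gene Slc1a3 (0.99), Gid8 (0.98) and Usp53 (0.98), and Nqo1 by Mrgprf (0.99), Dpm1 (0.98) and Maff (0.96), which encodes a partner protein of NRF2. Tfrc was followed by Masp1, Pgm2 and Stat6 (0.96, 0.96 and 0.95), Cp by Ifitm1, Foxq1 and Tsen15 (0.96, 0.95 and 0.94), and Fth1 by Batf, U2af1l4 and Efcc1 (0.96, 0.95 and 0.94). Between members, Slc11a1 and Hmox1 had r = 0.93 and Slc11a1 and Slc7a11 r = 0.83, in values that share the group difference.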

How the data were processed

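RNA of 8 hippocampi was measured, 1 array per animal, in 4 normal and 4 mutant mice. The authors deposited 1 log2 value for each probe set and array, made with RMA, and GCOS 1.4 is also named, per the submitters' processing notes; the genome build was not given in the sources used here. Of 22690 probe sets, 64 were controls and 22626 were tested; 20380 had 1 gene symbol, 691 several and 1555 none, and 20351 matched the RefSeq gene table by identifier. Each of 12393 genes was read from its brightest probe set by mean. Array medians were 6.09 to 6.17. Arrays give no counts, so their number limits the precision.

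Mutant and normal mice were compared by lmFit and eBayes of limma 3.58.1 (R 4.3.3), Benjamini-Hochberg adjusted over all genes or all probe sets, threshold 0.05, and member genes also by a two-sided exact permutation test over 70 arrangements. The steps were tested on simulated data. Motifs were searched in RefSeq windows of 250 bases (GRCm38.p6). Figures were drawn with matplotlib 3.10.9. The members, gene lists and tests were chosen with earlier results of these data known. Genes named are the members, the 3 other genes of each list with the smallest p, and the 3 genes of highest Pearson r with each member; Rpl and Rps genes were added after the values were seen. Alternatives covered the choice of probe sets, dim genes, normalization, the variance model, array weights, sex, age, animal numbers and left-out animals. The p-values set the group difference against the spread between these animals, which limma estimates with help from all genes.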

Additional observations from a re-analysis of the deposited data

Results flagged for a closer look

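Each of the 24 probe sets was examined in both groups (48 groups of 4 animals) for an animal whose gap to the nearest other passed Dixon's 95% critical value as a share of the group's range, which chance gives in about 1 of 20 groups. This held for 3. Normal 4 was lowest among normals on the brightest Fth1 probe set (13.07, gap 0.852 of the range). Normal 1 was highest among normals on 1 of the Cp probe sets (5.73, 0.894). Mutant 3 was lowest among mutants on the dimmer Mt1 probe set (5.51, 0.888).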

How the results depend on the processing

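Over 24 alternatives of the gene fit, 237 member values were obtained: 234 kept their sign and their side of the threshold, 1 changed sign and 2 passed. Slc11a1, Hmox1 and Slc7a11 are among the dimmest 40% of genes and gave no value without these. Fth1 turned to 0.055 without normals 1 and 3; the cause was not tested. Slc11a1 passed with probe sets averaged and with array weights, and in none of its other alternatives. The iron median moved to 0.13 with probe sets averaged, and the antioxidant median to 0.59 with array weights. Without Slc11a1, the iron median was 0.29, and without Hmox1 and Slc7a11 the antioxidant median was 0.41, both added after the data were seen, as was the stricter metal response core.

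All genes called numbered 13, and 21 with probe sets averaged, 8 without the dimmest 40%, 36 with array weights, 2 with the replicate block (4 pairs of the same sex and series of animal numbers), 6 without mutants 1 and 3, 5 without normals 1 and 3, 6 without mutants 2 and 4, and 5 to 40 without 1 animal (40 without normal 2, 8 or fewer without normal 3 or 4 or mutant 1, 2 or 4). All probe sets called numbered 20, and 60 with array weights, 7 with sex, 10 with age, 6 with both, 0 with the replicate block (1188 at an unadjusted p under 0.05 in limma), 3 without mutants 1 and 3, 6 without normals 1 and 3, 5 without mutants 2 and 4, and 6 to 27 without 1 animal. The interaction with sex called 0 genes in limma in each of 3 fits (1419 at an unadjusted p under 0.05). The labels do not say whether animals of 1 number are littermates. Those numbered 1, and those numbered 2, share sex and age across the groups, and those numbered 3 and 4 share sex but not age. Animals of 1 number also share the series of animal numbers. The check of pairing was not met. Deviations from the group means correlated at -0.24, 0.06, 0.39 and -0.15 within the 4 pairs over 12393 genes. Of the 4 normals, 1 correlated best with its own number. Dim probe sets near the bacterial controls limit Cp and Tfrc.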

Other observations

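The array also carries 3 control probe sets for the transferrin receptor, placed along its transcript, which entered no test. The 3 prime one lay between 4.32 and 5.30, with normal 1 lowest and normal 4 highest and group means of 4.84 in both. The middle one (2.47 to 3.03) and the 5 prime one (2.36 to 3.28) stayed within the range of the bacterial controls on all 8 arrays.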
